A study of Mus musculus with 9 samples.

Results

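*Cck*, *Mylk2*, *Rasgrf2*, *Trdc*, *Cd72*, *Cd83*, *Gm49339*, *Lilr4b* and *Lilrb4a* are 9 of the 55471 genes measured by RNA sequencing in 9 cultures of primary mouse articular chondrocytes, the resident cells of joint cartilage. They were chosen by their measured counts in these same cultures, as genes that were silent or low in control cells and changed strongly when the receptor OSCAR was overexpressed or when 5-aminosalicylic acid (5-ASA) was added. Their levels and fold changes are therefore given as a description, without a test. The chondrocytes came from the knees (femoral condyles and tibial plateaus) of wild-type mice at postnatal day 5, and all were grown on plates coated with COLpep, a collagen peptide that binds OSCAR. There were 3 groups of 3 cultures. Ad-Control cultures were infected with a control adenovirus, Ad-OSCAR cultures with an adenovirus that makes cells express OSCAR, and the last group with Ad-OSCAR followed by 5-ASA. No group received 5-ASA without Ad-OSCAR. The sample annotations give 400 MOI (virus particles per cell), 3 days of culture, 2 h of infection and 36 h until 5-ASA, whereas the methods of the study give 800 MOI, 48 h of culture and 24 h with or without 10 µM 5-ASA. The annotations do not say whether cultures of a group came from separate animals, so all p-values below measure only the spread between these cultures.

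The 9 genes do not form a single pathway. *Cck* encodes cholecystokinin, a peptide hormone and neuropeptide that is made as a prohormone, cut and amidated, and acts through a pair of G protein-coupled receptors in gut and brain. *Mylk2* encodes the myosin light chain kinase of skeletal muscle, and *Rasgrf2* a guanine nucleotide exchange factor that activates RAS and RAC, best known in neurons. The others are immune genes. *Trdc* is the constant region of the T cell receptor delta chain. *Cd72* encodes an inhibitory receptor of B cells that carries phosphatase-recruiting motifs and binds semaphorin 4D. *Cd83* encodes a surface protein of mature dendritic cells and activated lymphocytes that stabilizes MHC class II and CD86. *Lilrb4a* encodes gp49B, an inhibitory receptor with immunoglobulin domains found on mast cells, macrophages and other leukocytes, and *Lilr4b* encodes its close relative gp49A, which lacks the inhibitory motifs. OSCAR is itself an immunoglobulin-like receptor, known from osteoclasts, that binds collagen and signals through the adaptor FcRγ (*Fcer1g*). Healthy cartilage holds no blood vessels, nerves or leukocytes.

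*Gm49339*, *Lilr4b* and *Lilrb4a* have to be read as 1 locus, because their annotated transcripts share sequence. On chromosome 10 of GRCm38, on the plus strand, *Lilr4b* spans 51480632 to 51486703, *Lilrb4a* 51490956 to 51496611, and *Gm49339* (ENSMUSG00000062593.17) runs from 51480612 to 51496613 across both. Of the 1990 exonic bases of *Gm49339*, 1968 (98.9%) lie in exons of the other genes, 92.8% in *Lilrb4a* and 6.1% in *Lilr4b*. In effect its transcript Gm49339-201 joins the first coding exon of *Lilr4b* to the second exon of *Lilrb4a*. The joined coding bases of exons 1 and 2 are shown here to make plain how little separates the transcripts. Each line reads 5′ to 3′ in GRCm38, with coding exon 1 in lower case and exon 2 in capitals.
Lilr4b-201 (exon 1 chr10:51480720-51480753, exon 2 chr10:51480906-51480941): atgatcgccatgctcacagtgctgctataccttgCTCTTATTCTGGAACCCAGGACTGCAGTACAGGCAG
Gm49339-201 (exon 1 chr10:51480720-51480753, exon 2 chr10:51491197-51491232): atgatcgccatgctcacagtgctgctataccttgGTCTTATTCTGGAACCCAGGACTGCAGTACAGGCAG
Lilrb4a-201 (exon 1 chr10:51491018-51491051, exon 2 chr10:51491197-51491232): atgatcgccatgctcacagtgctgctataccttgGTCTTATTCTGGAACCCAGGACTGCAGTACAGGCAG
Over these 70 bases, Gm49339-201 and Lilrb4a-201 had 0 differences. Lilr4b-201 differed from both by C35G, counted from 1 at the start codon with the *Lilr4b* base first. All 55 bases of exon 1 of Lilrb4a-201 were also found in exon 1 of Gm49339-201. Reads that lie within these stretches match both transcripts. The coding exons of equal length in Lilr4b-201 and Lilrb4a-201 (7 exons, 864 bases) were 95.9% identical, with 35 differences. Of their windows of 100 bases, 5.4% (41 of 765) had an exact match in the other gene.

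The overexpressed gene was first checked in every culture. *Oscar* had 4, 3 and 4 counts in the Ad-Control cultures, 187278, 173445 and 179480 with Ad-OSCAR, and 91718, 80766 and 94199 with Ad-OSCAR and 5-ASA. Thus *Oscar* RNA itself was lower with 5-ASA, by a log2FC of -0.97 (SE 0.06, edgeR quasi-likelihood test, adjusted p = 1.76e-08), and this fall stands beside every 5-ASA difference below, with its part in them not tested. Total estimated counts ranged from 19733448 to 28192740 per culture. Of 10 chondrocyte marker genes, 8 were downregulated by Ad-OSCAR, *Col2a1* by a log2FC of -3.97 (SE 0.07, adjusted p = 2.99e-18) and *Acan*, the cartilage proteoglycan aggrecan, by a log2FC of -6.38 (SE 0.07, adjusted p = 2.46e-21). Their summed level went from between 14996 and 16958 TPM (a level scaled by transcript length and by library) in Ad-Control to between 1041 and 1194 with Ad-OSCAR. The Ad-Control cultures thus carried the defining chondrocyte transcripts at high levels and the Ad-OSCAR cultures did so at much lower ones. In such bulk samples, fewer cells of a type and less RNA per cell cannot be told apart.

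With Ad-OSCAR, 7 of the 9 genes lay past the limits used for OSCAR DEGs in the study (|log2FC| > 1.5 and an adjusted p below 0.05) in the higher direction, beside 4.57% of all 15362 genes tested, and 0 in the lower direction, beside 5.39%. The genes were chosen on this contrast, so nothing is read from the difference between these shares. *Cd72* and *Rasgrf2* were the exceptions, which means that a switch from silent to expressed describes only part of the group. Looser limits (an unadjusted p below 0.05 and a fold change over 1.5), which the methods of the study give for the drug in treated Ad-OSCAR cells against Ad-Control, were used here also for treated against untreated Ad-OSCAR cells. With 5-ASA added, 6 of 9 were past the limits in the lower direction (beside 1.87% of all genes). These were *Cck*, *Cd72*, *Gm49339*, *Lilr4b*, *Lilrb4a* and *Rasgrf2*. Only *Cd83* was past them in the higher direction (beside 2.27%), and *Mylk2* and *Trdc* were within them. *Trdc* (log2FC -0.50) passed the fold limit without Ad-OSCAR culture 2 (-0.59) or treated culture 2 (-0.61). In those fits 7 of the 9 were past the limits in the lower direction. Between 5-ASA-treated Ad-OSCAR cells and Ad-Control, a comparison that shares its cultures with the others and used the looser limits, 7 genes were higher (beside 14.6% of all genes), *Cd72* was lower (beside 15.3%) and *Rasgrf2* was within the limits. All 9 genes passed the filter on low counts, several only through the Ad-OSCAR cultures.

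**Figure D1:**
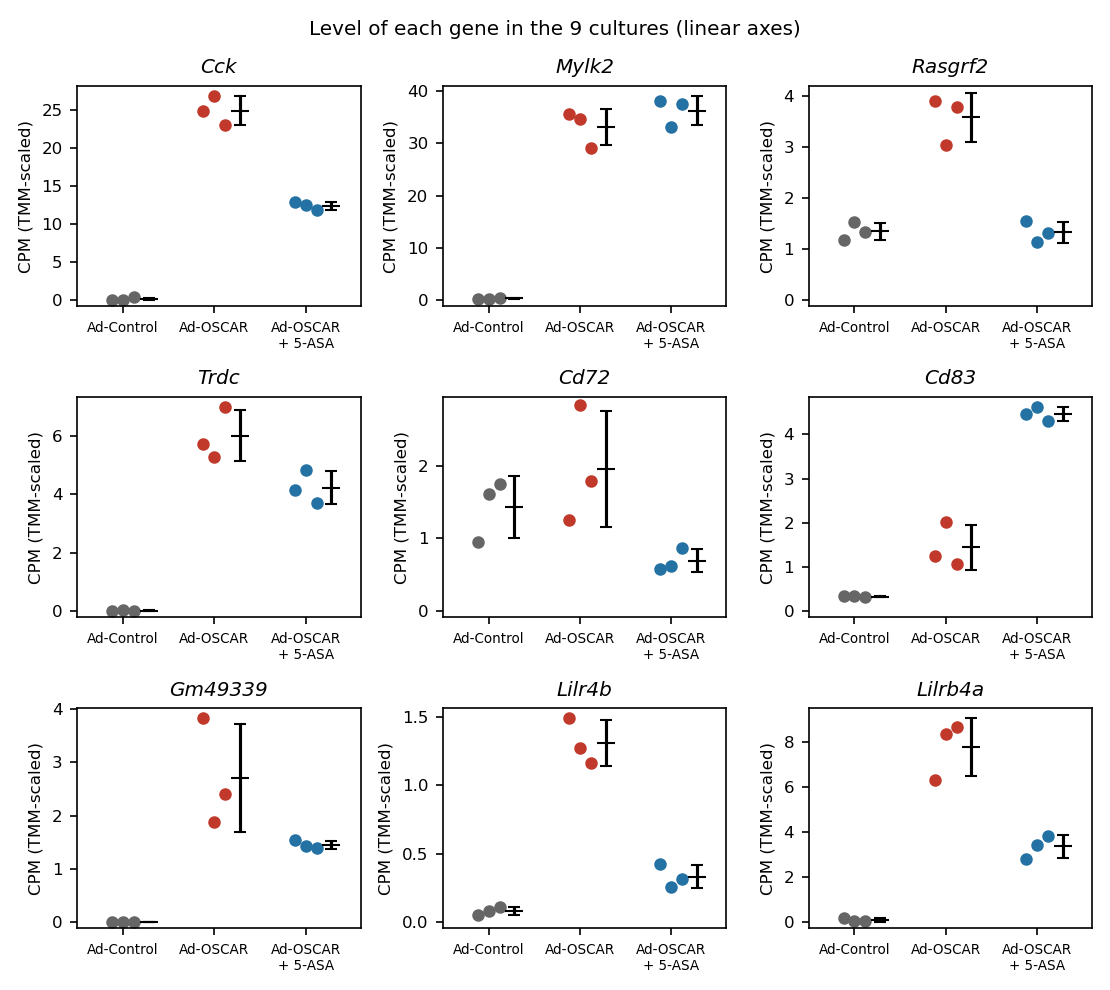
Level of the 9 genes in each culture as CPM (counts scaled by TMM library size, linear axis), with Ad-Control in grey, Ad-OSCAR in red and Ad-OSCAR with 5-ASA in blue; the bar beside each group of 3 points is its mean ± SD. Cck went from 0.135 to 24.9 and 12.4 CPM, Mylk2 stayed near 33.1 and 36.3 CPM in both Ad-OSCAR groups, and Cd83 was highest with 5-ASA. Rasgrf2 lay at 1.34 CPM in Ad-Control and 1.32 with 5-ASA, both below its Ad-OSCAR level of 3.57.

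*Cck* (chr9:121489824-121495694, minus strand) was close to silent in control chondrocytes and well above the middle of the transcriptome with OSCAR. Its counts were 1, 1 and 6 in Ad-Control, 732, 654 and 634 with Ad-OSCAR, and 334, 341 and 300 with 5-ASA. The groups did not overlap, and the treated cultures lay between the others. Per length, *Cck* reached 78.69 to 88.01 TPM with Ad-OSCAR, above between 91.4% and 92.5% of the genes detected in those cultures. With 5-ASA it lay at 38.81 to 40.02 TPM. The ratio of depth-scaled counts was 200-fold between Ad-OSCAR and Ad-Control (95% interval for counting error 101 to 464), and 0.499 (0.462 to 0.539) between treated and untreated Ad-OSCAR cells. Most of the control reads came from 1 culture. The fitted log2FC was 7.59 (SE 0.21) and became 8.99 without Ad-Control culture 3, which held 6 of the 8 counts.

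The transcript form of *Cck* could be read from the isoform-weighted length that accompanies each count, a value that did not enter the choice of genes. In the 6 Ad-OSCAR cultures with and without 5-ASA it lay between 689.18 and 692.02 bases, next to the 691 bases of Cck-201. The few control reads gave 478, 691 and 456.76 bases, but from 1 to 6 counts. The genes around the peptide were within the limits. Of 16 genes for the *Cck* receptors, gastrin and prohormone processing, 7 were tested and 0 were past the limits for OSCAR or 5-ASA, with a median log2FC of -0.41 for OSCAR beside 0.02 over all genes. The receptor genes *Cckar* and *Cckbr* had at most 2 and 1 counts in any culture. *Pcsk1*, a convertase of the regulated secretory pathway, had at most 5. *Pcsk2*, a related convertase, had 210 to 244 counts in Ad-Control and 583 to 646 with Ad-OSCAR, with a log2FC of 1.13 (adjusted p = 7.41e-10) that stayed under the limit of 1.5. *Pam*, which amidates peptides, had a log2FC of -0.96 (adjusted p = 1.1e-12). Of 28 other neuropeptide genes, 7 were tested, and *Nts* (neurotensin) was upregulated by OSCAR and again by 5-ASA. Its counts were 0 in the Ad-Control cultures, 9, 2 and 4 with Ad-OSCAR, and 11, 13 and 16 with 5-ASA. *Adm2* (intermedin) was upregulated by 5-ASA alone, by 0.75 on the log2 scale (SE 0.06, unadjusted p = 1.42e-09, adjusted p = 3.17e-07). *Penk* (proenkephalin), at far higher levels, moved the other way within the limits. It had 2794.95 to 3121.98 TPM in Ad-Control and 1454.05 to 1708.26 with Ad-OSCAR. Its log2FC was -0.87 (SE 0.06, adjusted p = 7.46e-10) for OSCAR and 0.48 (SE 0.06, adjusted p = 3.1e-05) for 5-ASA.

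*Mylk2* (chr2:152911352-152923068, plus strand) differed from *Cck* in its response to the drug. It had 4, 6 and 7 counts in Ad-Control, 1049, 847 and 800 with Ad-OSCAR, and 993, 907 and 950 with 5-ASA. The ranges of both Ad-OSCAR groups overlapped and lay far above the controls. The count ratio was 126-fold (95% counting interval 78.3 to 216) with Ad-OSCAR and 1.09 (1.04 to 1.15) with 5-ASA, where the fitted log2FC was 0.13 (SE 0.08). Its level per length was 17.92 to 21.82 TPM with Ad-OSCAR and 18.7 to 21.8 TPM with 5-ASA. *Mylk2* has a single annotated transcript, so no part of this difference came from a change in weighted length. Other muscle genes were mostly at low counts. Of 24 genes for skeletal muscle and other myosin light chain kinases, 10 were tested and 0 were upregulated by OSCAR, while the troponin genes *Tnnt3* (log2FC -3.51, SE 0.37, adjusted p = 1.59e-07) and *Tnni2* (log2FC -4.53, SE 0.69, adjusted p = 1.43e-05) were downregulated. The muscle regulators *Myod1* and *Myog* had at most 0 and 1 counts. *Mylk*, the smooth muscle kinase, had 853 to 1168 counts in Ad-Control and 672 to 850 with Ad-OSCAR. *Mylpf*, the regulatory light chain of fast muscle and a substrate of the kinase, was downregulated by 5-ASA (log2FC -1.02, SE 0.47, unadjusted p = 0.0441, adjusted p = 0.151) at 2 to 12 counts, and this call was lost in 7 of the 9 fits that left out a culture (log2FC -1.05 to -0.61).

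The genes beside the members were also compared, since their counts did not enter the choice. Of the 14 nearest tested protein-coding genes on either side, 1 was upregulated by OSCAR, 1 was downregulated, 12 were within the limits, and 0 were past the limits for 5-ASA. Both that moved flank *Mylk2*. *Foxs1*, a forkhead transcription factor gene that begins 8830 bases beyond *Mylk2*, had 11, 8 and 6 counts in Ad-Control, 287, 250 and 246 with Ad-OSCAR, and 349, 260 and 337 with 5-ASA. It was upregulated by a log2FC of 4.62 (SE 0.23, adjusted p = 2.65e-12) with Ad-OSCAR and, like *Mylk2*, stayed within the limits with 5-ASA (log2FC 0.32, SE 0.12, unadjusted p = 0.0137, adjusted p = 0.068). *Tpx2*, a spindle assembly gene 16031 bases on the other side, was downregulated (log2FC -2.68, SE 0.07, adjusted p = 7.07e-16), from 1093 to 1614 counts to 239 to 290. *Trak1*, 14906 bases from *Cck*, had a log2FC of 0.20 (SE 0.06, adjusted p = 0.00597), far from the limit.

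*Rasgrf2* (chr13:91880400-92131656, minus strand) was low in every group and returned to its control level with 5-ASA. It had 25, 37 and 25 counts in Ad-Control, 115, 74 and 104 with Ad-OSCAR, and 40, 31 and 33 with 5-ASA. The Ad-OSCAR cultures lay above all others, and the control and treated cultures overlapped. The count ratio was 2.67 (95% counting interval 2.09 to 3.43) with Ad-OSCAR, 0.367 (0.29 to 0.46) with 5-ASA against none, and 0.979 (0.729 to 1.32) between treated cells and Ad-Control. The fitted log2FC for OSCAR was 1.41 (SE 0.19), just under the limit of 1.5. Leaving out single cultures gave 1.32 to 1.52, and it passed the limit without Ad-Control culture 2 or Ad-OSCAR culture 2. On the TPM scale the difference was larger, 1.76 with 0.1 TPM added. The weighted length of *Rasgrf2* was 4515.67, 2952.86 and 2415.79 bases in the Ad-OSCAR cultures, 3811.84 to 4584.64 in Ad-Control and 3971.58 to 4765.31 with 5-ASA. Ad-OSCAR cultures 2 and 3 thus held the shortest values of all 9, while Ad-OSCAR culture 1 lay among the rest, so the groups overlapped. Annotated transcripts of the gene run from 502 to 5797 bases, and some 74 to 115 counts were divided among 6 of them. Of 33 genes for RAS proteins, their activators and their inhibitors, 28 were tested. *Rasgrp3* was downregulated by OSCAR (log2FC -1.79, SE 0.14, adjusted p = 1.69e-09), and *Rapgef5*, an activator of RAP, was upregulated (log2FC 1.68, SE 0.32, adjusted p = 0.000166). *Rapgef5* was also downregulated by 5-ASA, with a log2FC of -0.59 (SE 0.27, unadjusted p = 0.0412, adjusted p = 0.145), a call that was lost in 6 of the 9 fits that left out a culture (log2FC -0.63 to -0.47). The nearest relative, *Rasgrf1*, had 1 to 15 counts and was within the limits.

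**Figure D2:**
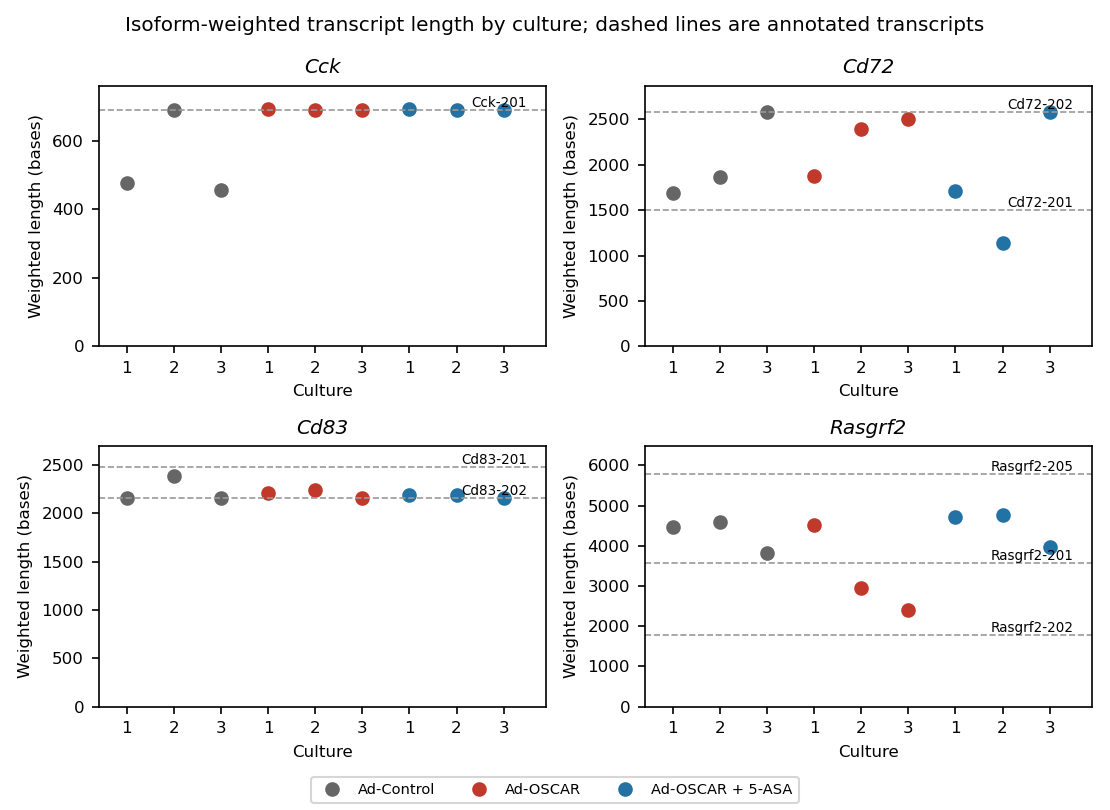
Isoform-weighted transcript length in bases (linear axis from 0) for Cck, Cd72, Cd83 and Rasgrf2 in each culture, with annotated transcripts as dashed lines and the groups coloured as in the legend. Cck sat at 689.18 to 692.02 bases in all Ad-OSCAR cultures, Cd83 near the 2158 bases of Cd83-202 in all but Ad-Control culture 2, and Cd72 and Rasgrf2 varied between cultures of the same group.

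*Trdc* (chr14:54142851-54148868, plus strand) had 0, 1 and 0 counts in Ad-Control, 169, 129 and 192 with Ad-OSCAR, and 108, 132 and 94 with 5-ASA. The control cultures lay far below the others, and the counts of both Ad-OSCAR groups overlapped at unequal depth. Scaled for depth they did not overlap, at 5.29 to 6.98 CPM with Ad-OSCAR and 3.72 to 4.82 with 5-ASA. Since the controls held a total of 1 count, the ratio of 388 for Ad-OSCAR has a 95% counting interval of 69.3 to 15360, and the fitted value went from 8.20 to 10.23 on the log2 scale without Ad-Control culture 2, which held that count. It was 5.99 with a prior count of 2 and 4.74 on the TPM scale with 0.1 TPM added. The ratio of treated to untreated Ad-OSCAR cells was 0.705 (0.611 to 0.811). Per length, *Trdc* lay between 2.36 and 3.23 TPM with Ad-OSCAR, above 43.4% to 46.9% of the genes detected.

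The other T cell receptor genes were at or near 0. The files listed 270 T cell receptor gene segments, of which 262 were at 0 in all 9 cultures and *Trdc* alone had more than 10 counts in any culture. *Trbc2*, the constant region of the beta chain, had 0 to 10 counts, and the variable segment *Trdv4* had 0 counts in Ad-Control and 1 to 4 in the 6 Ad-OSCAR cultures. The CD3 chains *Cd3e*, *Cd3d* and *Cd3g*, without which no T cell receptor reaches the surface, were at 0 in all 9 cultures, and *Ptprc* (CD45, on all leukocytes) had at most 2 counts. *Cd247*, the zeta chain of the same complex, had 0 to 8 counts in Ad-Control, 1 to 18 with Ad-OSCAR and 8 to 21 with 5-ASA, and its log2FC of 1.15 for OSCAR (SE 0.78, adjusted p = 0.208) was within the limits. Of 20 T cell genes, 4 were tested, and *Lck* (log2FC 1.88, SE 0.24, adjusted p = 1.82e-06) and *Lat* (log2FC 1.55, SE 0.60, adjusted p = 0.0296) were upregulated by OSCAR. *Lck*, a kinase, had 11 to 18 counts in Ad-Control and 58 to 88 with Ad-OSCAR. *Lat*, an adaptor, had 1 to 5 and 10 to 14, and its call was lost without Ad-Control culture 1 or 2 or Ad-OSCAR culture 1 or 2 (log2FC 1.04 to 1.70). The remaining tested gene, *Cd28*, went the other way within the limits (log2FC -1.05, SE 0.33, adjusted p = 0.00989). It had 15 to 20 counts in Ad-Control and 6 to 14 with Ad-OSCAR. The summed level of the list was 2.61 to 3.47 TPM in Ad-Control and 6.36 to 8.51 with Ad-OSCAR. On the other strand, the annotated genes *Gm43434* and *Trdv5* cover 2.5% and 5.4% of the exonic bases of *Trdc* and had at most 1 count each.

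**Figure D3:**
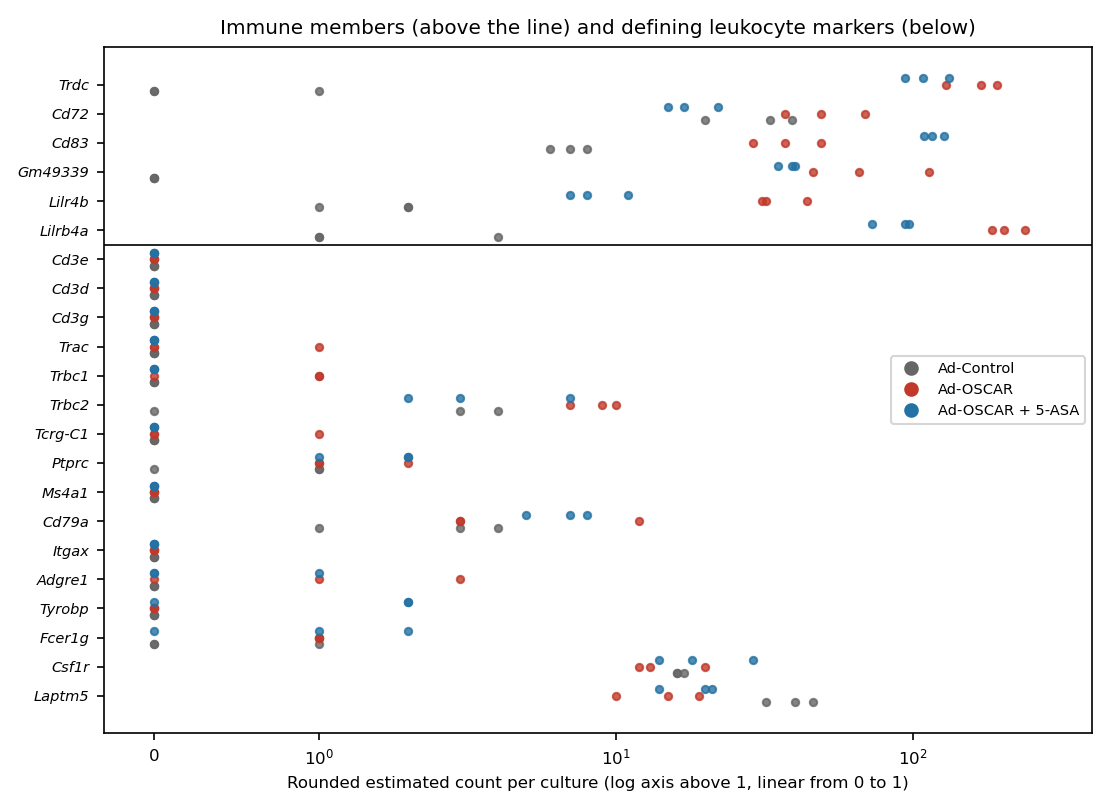
Rounded estimated counts in each of the 9 cultures (horizontal axis, logarithmic above 1) for the immune members above the line and for defining leukocyte markers below it, coloured by group. Trdc reached 192 counts and Lilrb4a 238, while Cd3e, Cd3d, Cd3g, Ms4a1 and Itgax were at 0 in every culture.

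*Cd83* (chr13:43784775-43803132, plus strand) was the only member past the limits in the higher direction with 5-ASA. Its counts were 7, 8 and 6 in Ad-Control, 37, 49 and 29 with Ad-OSCAR, and 116, 127 and 109 with 5-ASA. The groups did not overlap and stood in that order. The count ratio was 4.34 (95% counting interval 2.71 to 7.28) for Ad-OSCAR and 3.16 (2.56 to 3.94) for 5-ASA against none, so that treated cells were 13.7-fold (8.84 to 22.5) above Ad-Control. The weighted length was exactly 2158 bases in 4 cultures and 2186.37 to 2389.08 in the others. Cd83-202, annotated as a retained-intron transcript, has 2158 bases and the coding transcript Cd83-201 has 2477, so in those 4 cultures all reads were assigned to the former. Ad-Control culture 2, at 2389.08 bases from 8 counts, was the only one nearer to Cd83-201. Genes that work with the protein were measured too. Of 16 dendritic cell and co-stimulation genes, 5 were tested and 3 were upregulated by OSCAR. *Cd80*, a ligand of CD28, had 218 to 291 counts in Ad-Control and 1009 to 1350 with Ad-OSCAR (log2FC 1.91, SE 0.07, adjusted p = 3.98e-14). *Cd40*, a receptor of the TNF family, had 4 to 11 and 80 to 97 (log2FC 3.34, SE 0.26, adjusted p = 1.63e-09), and *H2-Ab1*, the beta chain of an MHC class II molecule, 0 to 1 and 8 to 16 (log2FC 3.63, SE 0.67, adjusted p = 0.000118). Unlike the level of *Cd83*, that of *Cd80* was lower with 5-ASA, with a log2FC of -0.66 (SE 0.06, unadjusted p = 3.2e-09, adjusted p = 5.66e-07). Other genes of MHC class II and CD86 were low and not tested. *Cd86* was at 0 in all cultures, and *H2-Aa*, the alpha chain of an MHC class II molecule, had at most 2 counts. The related genes *H2-Eb1*, *Cd74* and *Ciita* had 3 to 8, 3 to 5 and 1 to 6 counts in Ad-Control. With Ad-OSCAR they had 7 to 9, 1 to 6 and 1 to 5. The dendritic cell markers *Itgax*, *Flt3* and *Ccr7* had at most 0, 5 and 8 counts.

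*Cd72* (chr4:43446462-43454628, minus strand) was present in control cells and lowest with 5-ASA. Its estimated counts were 20.31, 39.31 and 32.79 in Ad-Control, 36.68, 69.47 and 49.43 with Ad-OSCAR, and 14.69, 16.76 and 21.55 with 5-ASA. Control and Ad-OSCAR cultures overlapped, and the counts of 1 treated culture lay above those of the lowest control. Scaled for depth, the treated cultures lay below all controls, with a highest value of 0.87 CPM against a lowest of 0.944 in Ad-Control. The count ratio was 1.33 (95% counting interval 1.02 to 1.75) for Ad-OSCAR, 0.36 (0.259 to 0.494) for 5-ASA against none and 0.481 (0.337 to 0.68) for treated cells against Ad-Control. Leaving out Ad-OSCAR culture 2 changed the fitted log2FC for OSCAR from 0.43 (SE 0.29) to 0.09. These values carry a doubt about their source. *Tesk1*, a kinase gene on the other strand (chr4:43441939-43448064), overlaps 1423 of the 3422 exonic bases of *Cd72* (41.6%), and the counts of *Cd72* were not whole numbers, as happens when reads are divided among genes. *Tesk1* had 600 to 687 counts in Ad-Control, 902 to 1035 with Ad-OSCAR and 867 to 963 with 5-ASA. Its log2FC was 0.22 (SE 0.07, adjusted p = 0.00851) for OSCAR and -0.01 (SE 0.07, adjusted p = 0.972) for 5-ASA. The weighted length of *Cd72* was exactly 2583 bases in Ad-Control culture 3 and treated culture 3, the length of Cd72-202, the longest transcript of the gene. Cd72-202 reaches furthest into *Tesk1*, and several shorter transcripts of *Cd72* also end inside it. In the other 7 cultures it lay between 1139.45 and 2508.19 bases. Of 14 B cell genes only *Blnk*, an adaptor of the B cell receptor, was tested. It was upregulated by OSCAR (log2FC 5.46, SE 0.62, adjusted p = 3.75e-07), from 0 to 1 counts to 20 to 30. The B cell markers *Ms4a1* and *Cd79b* were at 0 in all cultures. *Cd79a*, the partner chain of *Cd79b*, had 1 to 4 counts in Ad-Control, 3 to 12 with Ad-OSCAR and 5 to 8 with 5-ASA. Of 11 partner genes of CD72 and CD83, such as *Sema4d*, 8 were tested and 0 were past the limits.

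At the *Lilrb4a* locus, *Gm49339*, *Lilr4b* and *Lilrb4a* were also summed. The summed counts were 5, 3 and 3 in Ad-Control, 342, 280 and 336 with Ad-OSCAR, and 124, 140.01 and 139 with 5-ASA. No groups overlapped. In CPM the means were 0.173 ± 0.0573, 11.8 ± 0.399 and 5.12 ± 0.362 (SD, n = 3 each), against 2.71 ± 1.01 CPM for *Gm49339* alone with Ad-OSCAR and 1.45 ± 0.0808 with 5-ASA. The count ratio was 69 (95% counting interval 38.4 to 139) for Ad-OSCAR and 0.435 (0.386 to 0.489) for 5-ASA against none. *Lilrb4a* took most of it, with 185.29, 202.92 and 237.89 estimated counts with Ad-OSCAR and 72.9, 93.88 and 96.61 with 5-ASA, against 4, 1 and 1.12 in Ad-Control. *Gm49339* was listed at 0 in the controls, so that its Ad-OSCAR level was at least 19.6-fold higher when 3 counts per library are taken as the floor. Its counts with Ad-OSCAR, 112.66, 46.04 and 66.24, were spread more widely than the sum, and held 16.4% to 32.9% of it. With 5-ASA they were 40.38, 39.03 and 34.6, or 24.9% to 32.6%. Without Ad-OSCAR culture 1, the log2FC of *Gm49339* with 5-ASA changed from -0.91 (SE 0.25) to -0.57, inside the limit. That of the summed locus was -1.20 (SE 0.10) with all cultures and -1.21 (SE 0.12) without that culture. *Lilr4b* had 1, 2 and 1.88 counts in Ad-Control, 44.05, 31.04 and 31.87 with Ad-OSCAR, and 10.72, 7.1 and 7.79 with 5-ASA. Its ratio with 5-ASA was 0.251 (0.157 to 0.389), from a total of 26 treated counts as they were divided among the genes of the locus.

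**Figure D4:**
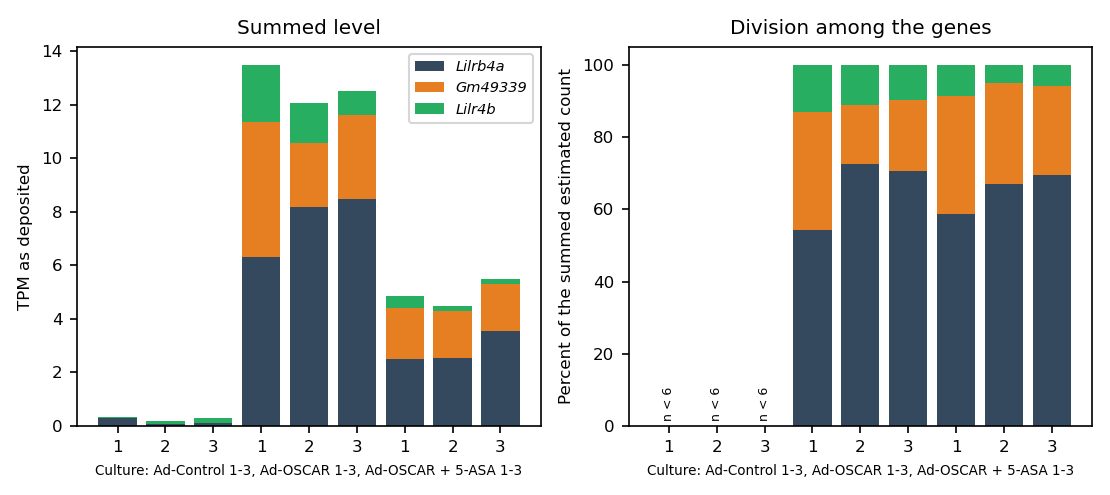
Left, deposited TPM of Lilrb4a, Gm49339 and Lilr4b stacked in each culture (linear axis from 0); right, the percent of the summed estimated count given to each gene, left blank for the Ad-Control cultures with 3 to 5 counts. The sum fell in 3 separate ranges, while the share of Gm49339 moved between 16.4% and 32.9% in cultures of Ad-OSCAR alone.

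Most relatives and partners of these receptors had too few counts to be tested. Of 26 paired immunoglobulin-like and related receptor genes, 21 were found and 3 were tested, and *Trem2* was upregulated by OSCAR (log2FC 1.52, SE 0.26, adjusted p = 4.59e-05), a call lost without Ad-Control culture 2 (1.38) or Ad-OSCAR culture 3 (1.496). *Pirb*, the paired inhibitory receptor, had at most 1 count. Of 14 genes for immune receptor adaptors and SH2 phosphatases, 9 were tested, and *Ptpn6* (the phosphatase SHP-1, which inhibitory receptors recruit) was upregulated (log2FC 1.58, SE 0.29, adjusted p = 0.000124) beside *Blnk*. The adaptors *Fcer1g* and *Tyrobp* had at most 2 counts in any culture, including those where *Oscar* had 80766 counts or more. Of 20 macrophage and pan-leukocyte genes, 6 were tested, with *Cd68*, a lysosomal protein, upregulated (log2FC 2.06, SE 0.15, adjusted p = 7.77e-10) and *Laptm5* downregulated (log2FC -1.75, SE 0.26, adjusted p = 1.25e-05). The list summed to 24.49 to 28.08 TPM in Ad-Control, 50.26 to 52.65 with Ad-OSCAR and 40.23 to 42.36 with 5-ASA. *Adgre1* (F4/80) had at most 3 counts and *Csf1r* 12 to 29 over all groups. Of 10 mast cell genes only *Kit* was tested, and it was upregulated by 5-ASA (log2FC 0.91, SE 0.19, unadjusted p = 0.000177, adjusted p = 0.0026), while *Mcpt4* and *Tpsb2* were at 0 in all cultures.

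Osteoclasts are the cells from which OSCAR is known. Of 9 osteoclast genes, 7 were tested and 4 were upregulated by OSCAR, with a list median log2FC of 2.26, beside 4.57% of all genes and a median of 0.02. They were *Atp6v0d2*, a proton pump subunit (log2FC 6.40, SE 0.53, adjusted p = 4.52e-09, 0 to 1 counts in Ad-Control and 40 to 54 with Ad-OSCAR), *Calcr*, *Itgb3* and *Mmp9*. *Atp6v0d2* and *Calcr* (1 to 3 counts in Ad-Control) passed the filter on low counts only through cultures with Ad-OSCAR. Nothing is therefore read from the list's share or median beside those of all genes. *Ctsk* (log2FC 0.59) and *Nfatc1* (0.18) were within the limits. *Acp5* (the phosphatase TRAP), a defining osteoclast marker, had a log2FC of -0.62 (SE 0.08, adjusted p = 3.74e-06), within the limit of 1.5. The fusion genes *Dcstamp* and *Ocstamp* were at 0 in all cultures and at 0 to 4 counts. *Mmp9* was also upregulated by 5-ASA (log2FC 0.61, SE 0.10, unadjusted p = 1.64e-05, adjusted p = 0.000404), a call lost without Ad-OSCAR culture 3 (0.54) or treated culture 1 (0.54). Of 10 neuronal genes, 4 were tested, and *Stmn2* was upregulated by OSCAR (log2FC 2.56, SE 0.41, adjusted p = 2.24e-05) and *Tubb3* by 5-ASA (log2FC 1.16, SE 0.26, unadjusted p = 0.000283, adjusted p = 0.00375). With Ad-OSCAR, *Tubb3* was lower, within the limits (log2FC -0.92, SE 0.27, adjusted p = 0.00602). The untested *Snap25*, *Elavl3*, *Rbfox3* and *Nefl* had at most 1, 1, 2 and 2 counts. *Syt1* had 6 to 13 counts in Ad-Control and 3 to 6 with Ad-OSCAR. Of 8 endothelial genes, *Tek* and *Vwf* were tested. Both were upregulated by OSCAR and downregulated by 5-ASA, *Vwf* from 3 to 11 counts in Ad-Control to 58 to 82 with Ad-OSCAR (log2FC 3.11, SE 0.31, adjusted p = 6.93e-08) and to 23 to 25 with 5-ASA (log2FC -1.43, SE 0.24, unadjusted p = 1.35e-05, adjusted p = 0.000347). The 5-ASA call of *Tek* was lost without Ad-OSCAR culture 3 (-0.58). The other endothelial genes were too low to be tested. *Cldn5* was at 0 in all cultures, and *Cdh5*, *Emcn* and *Tie1* had at most 2, 1 and 1 counts. *Kdr* and *Pecam1* had at most 5 and 6. The part of cells of these types in the levels of the 9 genes was not tested.

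**Figure D5:**
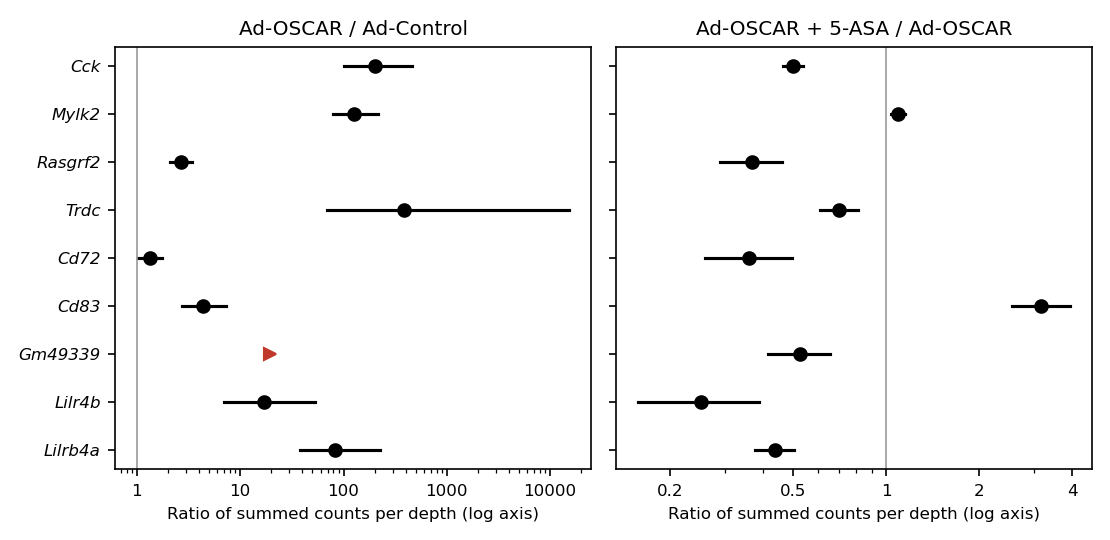
Ratio of summed, depth-scaled counts for each gene (logarithmic axes) between Ad-OSCAR and Ad-Control at left and between Ad-OSCAR with and without 5-ASA at right; lines are exact 95% intervals for counting error and the red arrowhead for Gm49339 is a lower bound of 19.6. With 5-ASA, 7 genes lay left of 1, with Lilr4b at 0.251, Cd72 at 0.36, Rasgrf2 at 0.367, Mylk2 at 1.09 and Cd83 at 3.16.

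Promoter sequence was at hand for 4 of the 9 genes, as 250 bases before the RefSeq start (GRCm38.p6). Those of *Cck*, *Rasgrf2* and *Cd72*, all lower with 5-ASA, are printed because each held a searched motif, set in capitals and read 5′ to 3′ along the gene's strand.
Cck (chr9:121495695-121495944, minus strand): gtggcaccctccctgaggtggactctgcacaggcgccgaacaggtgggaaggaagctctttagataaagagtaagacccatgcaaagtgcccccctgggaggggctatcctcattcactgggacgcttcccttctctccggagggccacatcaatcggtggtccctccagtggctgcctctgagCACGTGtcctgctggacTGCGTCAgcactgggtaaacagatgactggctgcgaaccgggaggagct
Rasgrf2 (chr13:92131829-92132078, minus strand): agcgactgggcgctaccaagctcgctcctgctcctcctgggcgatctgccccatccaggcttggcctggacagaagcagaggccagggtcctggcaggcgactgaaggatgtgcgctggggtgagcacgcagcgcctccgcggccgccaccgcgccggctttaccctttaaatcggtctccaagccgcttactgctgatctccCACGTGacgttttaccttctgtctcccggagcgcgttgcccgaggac
Cd72 (chr4:43454627-43454876, minus strand): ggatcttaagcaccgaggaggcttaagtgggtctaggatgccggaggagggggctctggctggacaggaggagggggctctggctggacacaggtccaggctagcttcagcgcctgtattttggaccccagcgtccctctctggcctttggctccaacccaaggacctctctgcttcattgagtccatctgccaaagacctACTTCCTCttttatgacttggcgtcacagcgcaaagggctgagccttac
In *Cck*, the capitals mark the E-box CACGTG 66 bases before the start and the CRE-like TGCGTCA 49 bases before it. *Rasgrf2* held CACGTG at 47 bases, and *Cd72* the reverse strand of the PU.1 motif GAGGAAGT at 49 bases. Searched on both strands of all 32851 promoters of this length, CACGTG (a palindrome, so both strands match at the same place) was found in 6.02%, TGCGTCA in 1.75% and GAGGAAGT in 2.44%. The CRE TGACGTCA (1.55% of promoters), the AP-1 motif TGANTCA (6.75%) and the NF-kB motif (GGGNN followed directly by TTTCC, 1.41%) were in none of the 4, and *Lilr4b* held none of those searched. The motifs were chosen after the sequences had been read, and a match describes letters only.

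Finally, the genes whose pattern over the 9 cultures was most like that of each member were sought by Pearson's r of log2 CPM, as a description over 9 cultures that share 3 group levels. For *Cck* these were *Pou2f2* (r = 0.997) and *Nova1* (0.997), for *Mylk2* *Nr2f2* (1.00) and *Tnfaip2* (0.999), and for *Trdc* *Alcam* (1.00) and *Txnrd1* (0.999). For *Lilrb4a* they were *Rai2* (0.997) and *Mmp12* (0.996), a macrophage elastase with mean levels of 0.879, 29.3 and 11.9 CPM in the 3 groups. *Lilr4b* was closest to *Cndp2* (0.990) and *Arl8a* (0.988), and *Gm49339* to an unnamed gene (0.996) and *Dusp6* (0.996). *Cd83* was closest to *Pou6f1* (0.996) and *Sap18b* (0.994), whose mean levels also stood highest with 5-ASA. The likeness was lower for the genes within the limits for OSCAR, *Rasgrf2* (*Pmm1*, 0.976, and *Wdr7*, 0.965) and *Cd72* (*Gm16156*, 0.976, and *Qrich1*, 0.952).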

How the data were processed

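The 9 genes and the gene lists were chosen with earlier results of these data known. RNA of 9 cultures (3 per group) was sequenced by the authors from stranded mRNA libraries as 100 base paired reads, aligned with STAR 2.7.1a to GRCm38 and counted with RSEM 1.3.1; whether strand was used in counting is not given in the sources used here. The authors deposited expected counts (estimated counts, not scaled to a common total), TPM and an isoform-weighted length in bases for 55471 genes, and GENCODE M21 gave names for 55144. Counts were rounded to whole numbers, and between 8.97% and 10.1% of genes per culture had counts that were not whole. No replicate pair agreed within sampling noise (chi-square per degree of freedom 4.25 or more).

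Differential expression was fitted in R 4.3.3 with edgeR 4.0.16 (TMM, filterByExpr, quasi-likelihood F test, 15362 genes, 1 fit of 9 cultures with 6 residual degrees of freedom, Benjamini-Hochberg adjustment). Count ratios used TMM library sizes with exact binomial 95% intervals, which cover counting error only, and a floor of 3 counts per library. The genes named are the 9, those that overlap them, the nearest tested protein-coding gene on each side, and the 2 most alike in pattern. From the lists, genes past the limits and some at or near 0 counts are also named. Other list genes, within the limits or not tested, were chosen after their values were seen (*Pcsk1*, *Pcsk2*, *Pam*, *Penk*, *Mylk*, *Myod1*, *Myog*, *Rasgrf1*, *Cd247*, *Cd28*, *Cd79a*, *H2-Eb1*, *Cd74*, *Ciita*, *Sema4d*, *Csf1r*, *Acp5*, *Ctsk*, *Nfatc1*, *Syt1*). Alternatives were DESeq2 1.42.0, RLE normalization, other filters, a fit of only 2 groups, a replicate block, a prior count of 2, TPM with 0.1 added, the *Lilrb4a* locus summed, adjustment of p for the drug, and leaving out single cultures. The fit was also run on simulated data, and the result of that run is not reported here. Figures were made with Python 3.11.15, pandas 2.3.3, scipy 1.17.1 and matplotlib 3.10.9. No protein sequences were used here. A result on 1 marker gene is not reported here.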

Additional observations from a re-analysis of the deposited data

How the results depend on the processing

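No fitted value of the 9 genes changed direction where it was past the limits, in 446 values recomputed under the alternatives, and 55 moved by more than 1 SD between replicates. The requirement of at least 10 counts in every culture removed most of the 9 genes from the fit (7 of them had fewer in a control culture), so that 0 were past the limits for OSCAR in the higher direction, 0 and 2 with 5-ASA in the higher and lower direction, and 0 in the higher direction for treated cells against Ad-Control; 350 genes of all were then upregulated by OSCAR and 151 downregulated by 5-ASA. In the fit of only the 2 groups compared, 6 of the 9 genes were past the limits in the higher direction for treated cells against Ad-Control, against 7. Without a filter 514 genes were downregulated by 5-ASA, and with an adjusted p 170, against 288. Without a filter, the genes upregulated by OSCAR numbered 3 among other neuropeptides, 2 among macrophage and 1 among mast cell genes, with 2 macrophage genes downregulated. The replicate numbers did not pair the cultures (correlations of deviations between -0.072 and 0.04), and with the replicate block 706 genes were upregulated by OSCAR and 274 downregulated by 5-ASA, with 7 and 6 of the 9 genes past the limits as before. Of 1791 values recomputed in all, 28 calls of named genes were lost and 2 gained, with none reversed; *Lat*, *Mylpf* and *Rapgef5* made up most of the losses. Depth limits the control values of *Cck*, *Trdc* and *Lilrb4a*. Among fits that left out a culture, 1 control culture moved their fitted change for OSCAR most. For *Lilrb4a* alone the log2FC for OSCAR was 6.30, and 7.24 without Ad-Control culture 1. A prior count of 2 and TPM with 0.1 added gave lower values for OSCAR. They were 5.49 and 4.99 for *Lilrb4a*, and 6.93 and 6.54 for *Cck* (7.59 in the main fit). For *Gm49339* they were 5.13 and 5.19 (9.09), for *Mylk2* 6.59 and 6.28 (6.95), and for *Lilr4b* 3.14 and 2.93 (3.995). For the summed locus, leaving out each culture (an alternative chosen after seeing the data) gave 5.85 to 6.35 for OSCAR, -1.25 to -1.15 for 5-ASA and 4.65 to 5.16 for treated cells against Ad-Control.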
